A study of Mus musculus with 6 samples.

Results

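Interleukins and chemokines are the secreted signals of the immune system, and their receptors decide which cells respond. The genes described here are the 49 rows, of 13185 in the deposited expression table, whose symbols begin as an interleukin, a chemokine or one of their receptors. Another 9 receptor genes of the same naming pattern were set aside (Il2ra, Il2rb, Il2rg, Il4ra, Il7r, Il21r, Ccr7, Ccr9 and Cxcr4). The 49 comprised 18 ligands, 28 receptor chains, 2 soluble inhibitors (Il1rn and Il18bp) and the enzyme gene Il4i1. Genes were chosen by symbol among those listed, but the 9 genes set aside and the division into ligands and receptors were selected on knowledge of the fold changes in the contrast described here. Counts over the set are therefore descriptions, and the p-values printed for single genes are those of a fit over all genes, given to describe each gene.

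The samples were Notch1 T-ALL cells of the mouse, a T-cell leukaemia, called oncogenic lymphocytes in the labels. One group was exposed to panobinostat, which inhibits histone deacetylases, at 25 nM for 2 h, and the control cells got no drug. Both groups grew with the growth factor IL-2 (100 U/mL) on dishes coated with 2.5 ug/mL of antibody to CD3, which triggers the T cell receptor. Each group had 3 libraries of 3' mRNA sequencing. The sources used here do not give the mouse strain or age, how the leukaemia was made, or whether the 3 libraries stem from separate cultures. The p-values thus measure only the spread between these libraries, which may be technical. Levels are log2 CPM, where CPM is counts per 1000000 reads. The spacing of tied low values gave an estimate that 1 CPM stands for 6.01 to 7.74 reads. Because 3' libraries give about 1 read per transcript molecule, CPM was not divided by transcript length.

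The comparison asked what 2 h of the drug did to gene expression. Across the table, 4806 of 12554 tested genes passed the threshold (limma, Benjamini-Hochberg adjusted p under 0.05), which is 38.3%, with 2416 that rose (19.2%) and 2390 that fell (19%). Untreated library 1 lay nearer the treated libraries on the first principal component (-25.65) than untreated libraries 2 (-47.95) and 3 (-40.95). All 13 T cell markers checked and the thymocyte and T-ALL markers Notch1, Dtx1, Ptcra, Rag1 and Dntt were present in every library. Markers of other blood cells were present too. The 13 myeloid and neutrophil markers analysed summed to 1080 to 1170 CPM in treated and 1320 to 1510 CPM in untreated libraries, and the 6 B cell markers to 74.9 to 83.6 and 88.6 to 95.3 CPM.

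Interleukins act through receptor chains that are often shared, so that a cell's chain makeup sets what it can hear. Chemokines are small proteins that direct migration through G protein-coupled receptors, and are grouped as CC, CXC or C by the spacing of their first cysteines. Activated T cells secrete CC chemokines such as Ccl3 and Ccl4, whereas Il1b, Il12b, Cxcl9 and Cxcl10 are known chiefly as products of activated myeloid cells.

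Of the 49 genes, 40 had a mean level of at least 0 log2 CPM and were tested. In treated cells 17 of them fell and 2 rose, which is 47.5% called beside the 38.3% of all tested genes. Some of the 40 reached the mean only through their level in untreated cells, and others, such as Il17rd, only through treated cells. This share is therefore not evidence about the set. Among ligands 8 fell, 0 rose and 6 were not called of 14 tested, with a median log2 fold change of -1.23. Among receptors 8 fell, 2 rose and 13 were not called of 23 tested, with a median of -0.40. The median over all tested genes was -0.0052. Many of these genes were expressed at low levels, where fewer genes are called. At a mean of 0 to 2 log2 CPM, 18.4% of all tested genes were called (8.65% rose and 9.72% fell). Here 5 of 7 ligands fell, and of 11 receptors 1 rose and 1 fell. Of those ligands, Ccl3, Cxcl16, Cxcl9 and Il12b had treated means of -0.95, -0.95, -0.35 and -0.36 log2 CPM. They were tested only through their untreated levels, and the receptor that rose, Il17rd, only through its treated level. These counts are thus not evidence about either class. From 2 to 4 log2 CPM, 37.2% of all tested genes were called, beside 2 of 6 ligands and 5 of 8 receptors, and above 4 log2 CPM 46.5%, beside 1 of 1 ligand and 3 of 4 receptors. Ligands were not tested against receptors. In fits with 1 library left out, the 19 calls became 9 without untreated library 2, 11 without untreated library 3, 19 without untreated library 1 and 13 or 14 without 1 of the treated libraries.

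Levels in treated and untreated libraries were without overlap in 51.4% of all tested genes, and in 9 of 14 tested ligands and 12 of 23 tested receptors. The treated libraries were the lower ones in 25.7% of all tested genes.

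**Figure D1:**
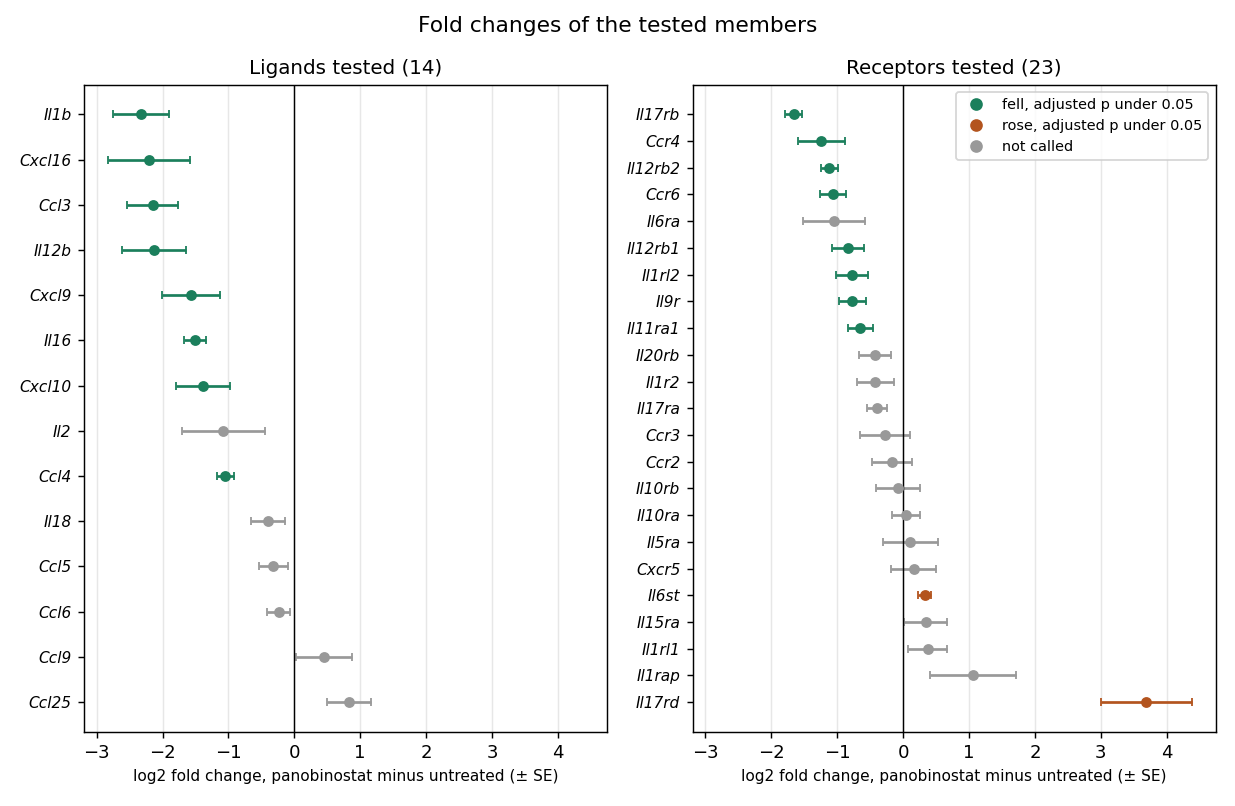
Log2 fold change (panobinostat minus untreated, x axis) with its standard error for the 14 ligands (left) and 23 receptors (right) tested, 1 gene per row. Among ligands the 8 called genes lie left of 0, while among receptors 8 called genes lie left of 0 and Il6st and Il17rd lie right of it.

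The largest fall of a tested ligand was that of Il1b, which encodes the fever-inducing cytokine IL-1 beta (chromosome 2, 129364570 to 129371139). It stood at 3.24, 3.49 and 3.74 log2 CPM in untreated libraries 1 to 3 and at 1.98, 0.21 and 1.28 in treated libraries 1 to 3. Every treated library lay below every untreated one, and the treated libraries differed more among themselves (SD 0.89 against 0.25, n = 3). The log2 fold change was -2.33 (SE 0.42, limma adjusted p = 0.00454), a level 5.03-fold lower. In a bulk sample, fewer cells of a type and less RNA per cell cannot be told apart. Il1rn, the antagonist that occupies the IL-1 receptor without signalling, fell as well. Its levels were 1.9, 1.25 and 1.57 log2 CPM in untreated and -1.30, 0.35 and 0.51 in treated libraries, again without overlap (log2 fold change -1.72, SE 0.52, limma adjusted p = 0.0326). Unlike that of Il1b, its call was lost without untreated library 1, 2 or 3. Il1f9, which encodes IL-36 gamma, a further cytokine of the IL-1 family, was too low on average to be tested. It had an estimated 10, 9 and 17 reads in untreated and 0, 1 and 0 in treated libraries, a ratio of summed reads per depth of 34.8 (95% interval 5.86 to 1410, exact binomial, counting error only). Il18, of the same family, was not called, at 2.70 ± 0.26 log2 CPM in treated and 3.10 ± 0.45 in untreated libraries (SD, n = 3).

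Il12b encodes the p40 chain shared by IL-12 and IL-23. It was at 1.25, 2.23 and 1.83 log2 CPM in untreated and 0.48, -0.34 and -1.22 in treated libraries, so the groups did not overlap, and it fell by 2.13 on the log2 scale (SE 0.49, limma adjusted p = 0.0122). Il16, whose long precursor yields a CD4-binding cytokine and a nuclear protein, was the only ligand above a mean of 4 log2 CPM (chromosome 7, 83642825 to 83745726). It had 5.43, 5.98 and 5.91 log2 CPM in untreated and 4.47, 4.09 and 4.21 in treated libraries. Treated libraries were lower throughout, and Il16 fell by 1.51 (SE 0.17, limma adjusted p = 0.000869). Stard5, on the opposite strand and overlapping Il16, rose (1.25 ± 0.14, SE). Whether counting used the strand is not stated in those sources. Il2, the growth factor that was also in the medium, varied widely within both groups. Its levels were 2.04, 2.57 and 4.24 log2 CPM in untreated and 1.41, 2.91 and 1.28 in treated libraries. The groups overlapped and Il2 was not called (log2 fold change -1.08, SE 0.63, limma adjusted p = 0.208).

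Among CC chemokines 2 fell and 4 were not called of 6 tested, beside 19% of all tested genes that fell. Ccl4, an attractant of T cells and monocytes, was at 4.28, 4.43 and 4.37 log2 CPM in untreated and 3.40, 3.35 and 3.18 in treated libraries. The libraries of each group lay close together and apart from the other group (log2 fold change -1.05, SE 0.13, limma adjusted p = 0.00103). Ccl3, a ligand of Ccr1, is the neighbour of Ccl4 on chromosome 11 (83647844 to 83649355 and 83662584 to 83664683). With an estimated 14, 18 and 16 reads in untreated and 2, 4 and 4 in treated libraries, Ccl3 was low in both groups. Its level fell from 1.21 ± 0.35 to -0.95 ± 0.31 log2 CPM (SD, n = 3), a log2 fold change of -2.15 (SE 0.39, limma adjusted p = 0.0046). That stretch of chromosome 11 holds Ccl5, a T cell chemokine, and the myeloid chemokine genes Ccl9 and Ccl6. None of these 3 was called, with log2 fold changes of -0.32 ± 0.22, 0.45 ± 0.43 and -0.24 ± 0.18 (SE). The difference between these genes and the pair Ccl3 and Ccl4 was not tested. Ccl25, the thymic ligand of Ccr9, had 2.92, 3.12 and 3.24 log2 CPM in treated and 2.91, 2.41 and 1.48 in untreated libraries. The groups did not overlap, by a margin smaller than the spread within either, and Ccl25 was not called (0.83 ± 0.34, SE, limma adjusted p = 0.092). It was called without untreated library 1 (1.15, adjusted p = 0.0194). Ccl2, the monocyte attractant, was left out as too low (-0.49 ± 0.75 treated and -0.34 ± 0.51 untreated log2 CPM, SD, n = 3).

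All 3 CXC chemokine genes tested fell, beside 9.72% of all tested genes at a mean of 0 to 2 log2 CPM. Cxcl9 and Cxcl16 had treated means below 0 (-0.35 and -0.95 log2 CPM) and were tested only through their untreated levels. Cxcl9 and Cxcl10, neighbouring genes on chromosome 5 that interferons induce and that share the receptor Cxcr3, were low. Cxcl10 was at 1.85, 1.77 and 1.57 log2 CPM in untreated and -0.43, 0.35 and 1.12 in treated libraries (log2 fold change -1.38, SE 0.41, limma adjusted p = 0.0316). Cxcl9 was at 0.93, 1.32 and 1.41 in untreated and 0.48, -0.74 and -0.79 in treated libraries (-1.57, SE 0.44, limma adjusted p = 0.0253). Cxcl16, the membrane-bound ligand of Cxcr6, was at 1.04, 1.25 and 1.48 in untreated and 0.48, -1.62 and -1.71 in treated libraries (-2.21, SE 0.62, limma adjusted p = 0.0255). In each of these genes the groups did not overlap, and the treated libraries were spread more widely than the untreated ones. Cxcl9 and Cxcl16 shared a high value in treated library 1, whereas Cxcl10 was lowest there. The calls of all 3 were lost in 4 or 5 of the 6 fits with 1 library left out. The neutrophil attractant Cxcl1 and the C chemokine Xcl1 were too low to be tested. Xcl1 had an estimated 15, 12 and 5 reads in untreated and 0, 8 and 9 in treated libraries, which overlap.

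For 7 of the called genes with few reads, the size of the change depended on the scale. After adding 1 to the linear values, log2 fold changes were -1.12 for Ccl3, -1.08 for Cxcl16, -1.28 for Il12b, -0.87 for Cxcl9, -0.89 for Cxcl10, -1.01 for Il1rn and 1.88 for Il17rd. Each kept its call.

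**Figure D2:**
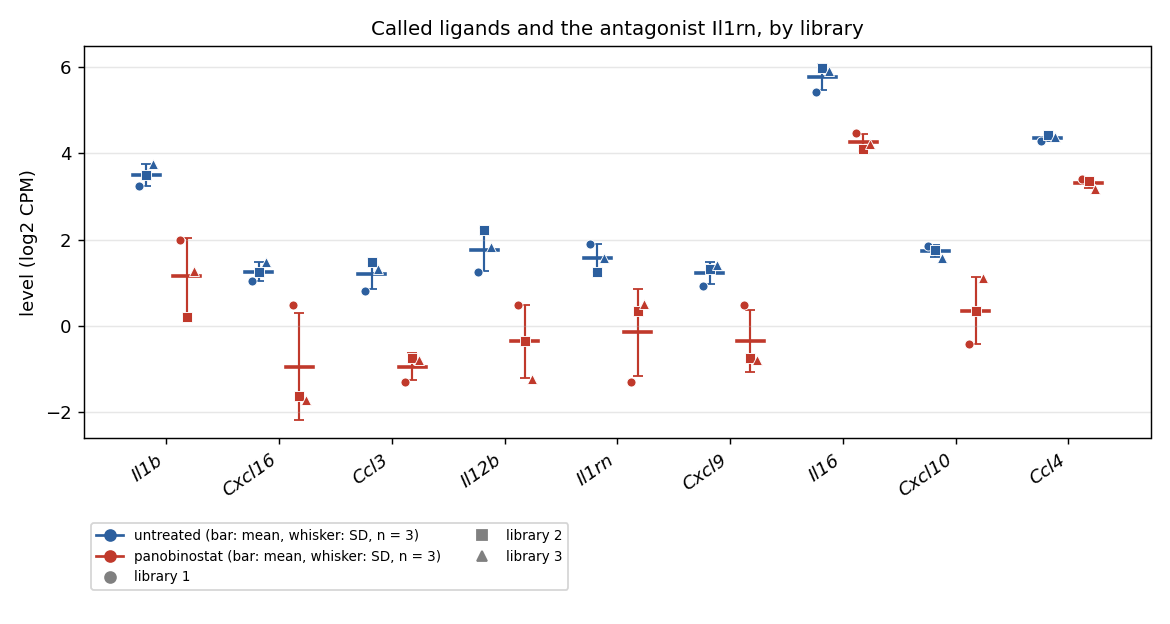
Level (log2 CPM, y axis) of the 8 called ligands and of Il1rn in each library, with the mean and SD of the 3 libraries of a group. Red symbols (treated) lie below blue ones (untreated) for each gene, with Ccl4 and Il16 showing narrow groups and Cxcl16, Il12b and Il1rn wide treated groups.

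Of the 13 myeloid markers tested, 5 fell, 0 rose and 8 were not called, beside 19% of all tested genes that fell. Those that fell were Spi1, a transcription factor that directs the lineage (-1.32 ± 0.19, SE), Csf1r, the macrophage growth factor receptor (-1.35 ± 0.36), Lyz2 (-0.62 ± 0.11), Mpo (-0.52 ± 0.10) and S100a8 (-0.39 ± 0.08). S100a9 (-0.14 ± 0.07), Itgam, Fcer1g and Tyrobp were among those not called, as was the macrophage marker Adgre1, whose mean was higher in treated libraries (0.54 ± 0.58). Csf1r was at 2.14 to 3.47 log2 CPM in treated and 3.74 to 4.71 in untreated libraries. The B cell receptor gene Cd79b fell as well (-0.97 ± 0.23), and the B cell marker Ms4a1 did not pass (0.09 ± 0.16). Of the T cell markers 7 fell and 0 rose of 13. Their sum was 1260 to 1290 CPM in treated and 1710 to 1830 in untreated libraries. Among the 9 thymocyte and T-ALL markers, by contrast, 3 rose and 1 fell, beside 19.2% of all tested genes that rose. The sum of these 9 was 1350 to 1470 CPM in treated and 1090 to 1340 in untreated libraries. Dendritic cell markers summed to 7.71 to 11 CPM in treated and 10.6 to 13.1 in untreated libraries, and 0 of 3 were called. None of the 5 NK cell markers looked up was found among the symbols of the expression values. The part of other cells in the lower ligand levels was not tested.

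**Figure D3:**
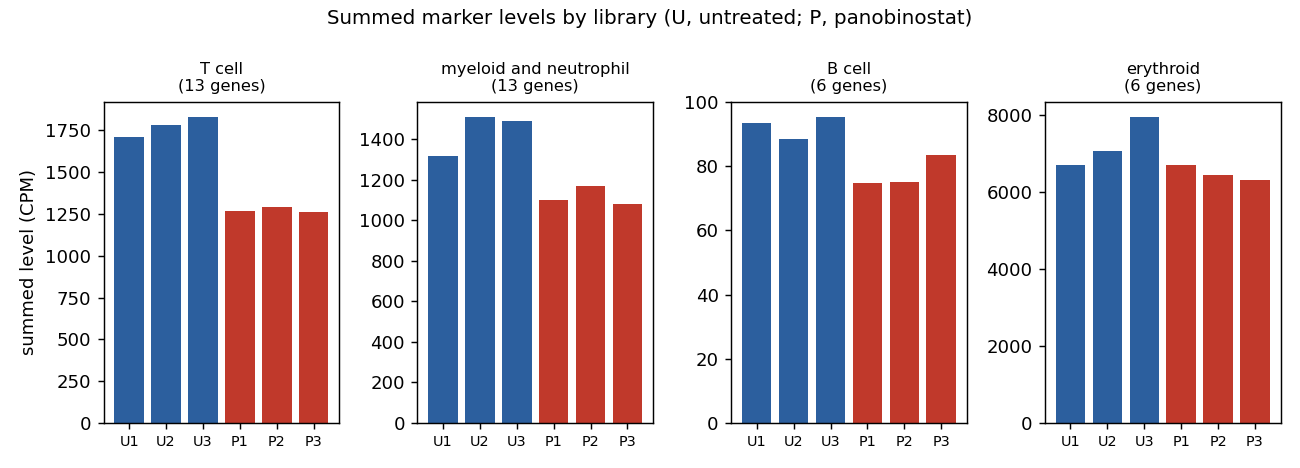
Summed level (CPM, y axis, from 0) of the T cell, myeloid, B cell and erythroid markers in each untreated (U) and treated (P) library. The T cell, myeloid and B cell sums are lower in each treated than in each untreated library, while the erythroid sums run from 6300 to 6700 and 6690 to 7940 CPM.

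Promoter windows from RefSeq (build GRCm38.p6) were found for 38 of the 49 genes, 17 windows for ligands and 25 for receptors, since some genes have several starts. Each window used here holds the 250 bases before a start. Both strands were searched for the AP-1 letters TGACTCA, which were in 4.46% of all 32851 windows, and the NFAT core TTTTCC, in 20.4%. The TATA box TATAAA was in 12.4%, the GC box GGGCGG in 32.7%, the NF-kB motif (whose letters the NFAT core can overlap) in 1.41% and the interferon response element in 2.98%. The GC box was in 0 of 17 ligand and 8 of 25 receptor windows, and the TATA box in 6 and 1. The NFAT core was in 5 windows of each class. The AP-1 letters were in 2 ligand and 5 receptor windows, the NF-kB motif in 3 and 1, and the interferon response element in 1 and 0. No window was found for the called ligands Ccl4 and Cxcl16. Ligand windows had a median of 2 CpG dinucleotides, receptor windows 4 and all windows 6. A match describes these letters and shows no binding. The windows of 3 ligands that fell are shown because they differ in these matches. They run 5′ to 3′ towards the start, with every match to these letters in capitals. Other forms of the same elements, including looser NF-kB letters, were not searched and stay in lower case. They lie on the minus strand at chr2:129371140-129371389 (Il1b), chr11:83649379-83649628 (Ccl3) and chr5:92348890-92349139 (Cxcl10).
Il1b: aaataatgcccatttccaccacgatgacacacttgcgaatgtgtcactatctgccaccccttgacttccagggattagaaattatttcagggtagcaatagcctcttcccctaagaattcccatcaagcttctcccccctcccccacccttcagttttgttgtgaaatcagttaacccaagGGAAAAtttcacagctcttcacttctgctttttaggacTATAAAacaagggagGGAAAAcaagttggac
Ccl3: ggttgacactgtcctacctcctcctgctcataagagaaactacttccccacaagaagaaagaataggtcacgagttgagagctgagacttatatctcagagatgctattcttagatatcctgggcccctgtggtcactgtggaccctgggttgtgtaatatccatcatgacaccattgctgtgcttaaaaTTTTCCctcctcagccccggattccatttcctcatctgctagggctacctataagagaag
Cxcl10: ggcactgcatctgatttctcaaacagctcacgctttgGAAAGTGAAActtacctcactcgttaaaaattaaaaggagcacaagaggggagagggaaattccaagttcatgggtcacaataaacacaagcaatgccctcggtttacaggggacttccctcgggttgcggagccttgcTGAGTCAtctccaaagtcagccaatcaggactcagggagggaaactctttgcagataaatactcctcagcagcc

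Receptors of the IL-17 family went in different directions. Il17rd encodes Sef, a receptor-like protein known as an inhibitor of fibroblast growth factor signalling (chromosome 14, 27038941 to 27107286). It had an estimated 3, 0 and 4 reads in untreated and 24, 29 and 29 in treated libraries. Treated libraries were alike (2.04, 2.16 and 1.97 log2 CPM), and each lay far above the untreated ones (-1.22, -3.25 and -0.43). The fitted log2 fold change was 3.69 (SE 0.69, limma adjusted p = 0.00524), which rests on the value given to 0 reads. Summed reads per depth gave a ratio of 12.1 (95% interval 5.62 to 31.1, exact binomial, counting error only). Il17rb, the chain that binds IL-25, was at 5.50, 5.44 and 5.68 log2 CPM in untreated and 3.70, 4.08 and 3.84 in treated libraries (chromosome 14, 29996135 to 30008896). The groups were narrow and apart, and Il17rb had the smallest adjusted p of the set (log2 fold change -1.66, SE 0.13, limma adjusted p = 0.000291), a level 3.17-fold lower. Actr8, which overlaps it on the opposite strand, fell by 0.63 (SE 0.11). Il17ra, the chain that IL-17 receptors share, had the highest mean level of the 49 genes, 6.99 ± 0.11 log2 CPM in treated and 7.39 ± 0.30 in untreated libraries (SD, n = 3). It was not called (-0.40, SE 0.15, limma adjusted p = 0.0639), but was called without untreated library 1 (-0.55, adjusted p = 0.00728).

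The windows before the starts of Il17rb (chr14:30008897-30009146, minus strand) and Il17rd (chr14:27038751-27039000, plus strand) are shown because these genes moved in opposite directions while both windows hold the GC box, which no ligand window held. Il17rb also has the AP-1 letters. Capitals mark motif matches.
Il17rb: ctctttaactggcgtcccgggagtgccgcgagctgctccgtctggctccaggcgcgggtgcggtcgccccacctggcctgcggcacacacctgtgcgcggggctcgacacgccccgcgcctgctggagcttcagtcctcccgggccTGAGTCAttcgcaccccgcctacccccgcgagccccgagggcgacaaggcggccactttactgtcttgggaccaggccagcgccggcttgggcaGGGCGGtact
Il17rd: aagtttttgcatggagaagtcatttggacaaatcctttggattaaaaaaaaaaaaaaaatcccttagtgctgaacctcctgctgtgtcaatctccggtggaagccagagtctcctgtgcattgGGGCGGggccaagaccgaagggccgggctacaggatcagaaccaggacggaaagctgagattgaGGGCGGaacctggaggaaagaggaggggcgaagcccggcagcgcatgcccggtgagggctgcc

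Both chains of the IL-12 receptor fell, as did the ligand chain Il12b. Il12rb2, the signalling chain, was at 4.89, 4.78 and 4.74 log2 CPM in untreated and 3.79, 3.49 and 3.77 in treated libraries (chromosome 6, 67291318 to 67376188). Even the nearest libraries of the groups (3.79 and 4.74) lay far apart, and Il12rb2 fell by 1.12 (SE 0.13, limma adjusted p = 0.000884). Il12rb1, which is also part of the IL-23 receptor, was at 2.72, 3.46 and 2.86 log2 CPM in untreated and 2.25, 2.28 and 1.97 in treated libraries. These groups did not overlap, with a log2 fold change of -0.84 (SE 0.24, limma adjusted p = 0.0254), but the call was lost without any 1 library except untreated library 1. Of the proteins that carry the IL-12 signal, the kinase genes Jak2 (-0.24 ± 0.08, SE) and Tyk2 (-0.19 ± 0.12) and the transcription factor gene Stat4 (-0.02 ± 0.41) were not called.

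Among shared and single-ligand interleukin receptor chains, Il6st rose. It encodes gp130, the signalling chain common to the IL-6 family, and was at 5.35, 5.22 and 5.45 log2 CPM in treated and 5.04, 5.04 and 4.95 in untreated libraries. The groups did not overlap and the change was small, 1.26-fold (log2 fold change 0.33, SE 0.10, limma adjusted p = 0.0326). Of the 6 fits with 1 library left out, 4 lost its call (without treated library 1 or 3, or untreated library 2 or 3), and the fit with no mean-variance trend lost it too. Il6ra, the chain that binds IL-6 itself, was not called and varied (0.81, 1.14 and -0.52 log2 CPM treated against 1.12, 1.84 and 1.64 untreated). Il11ra1, which pairs with gp130 for IL-11, fell from 3.14 ± 0.23 to 2.49 ± 0.20 log2 CPM (SD, n = 3), with a limma adjusted p of 0.0313 and a log2 fold change of -0.65 (SE 0.19). The call was lost in 4 of 6 fits with 1 library left out (without treated library 1 or 3, or untreated library 2 or 3). Near-identical copies of Il11ra1 are annotated, and overlapping Rpp25l changed by -0.86 ± 0.13 (SE), so its reads are uncertain. Il9r, which binds IL-9, was at 4.07, 4.31 and 4.0 log2 CPM in untreated and 3.43, 2.99 and 3.67 in treated libraries and fell by 0.77 (SE 0.20, limma adjusted p = 0.0178). Of its fits with 1 library left out, the one without untreated library 2 lost the call (adjusted p = 0.0575).

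Among chains of the IL-1 receptor family that the naming pattern takes in, 1 of 4 tested was called, beside 38.3% of all tested genes. Il1rl2, the receptor of the IL-36 cytokines, was at 3.04, 2.80 and 2.54 log2 CPM in untreated and 2.40, 1.77 and 1.86 in treated libraries. The nearest libraries of the groups were at 2.40 and 2.54, and Il1rl2 fell by 0.78 (SE 0.24, limma adjusted p = 0.0354), a call lost in 4 of 6 fits with 1 library left out. Il1r2, the decoy receptor of IL-1 (-0.42 ± 0.28, SE), Il1rl1, the IL-33 receptor ST2 (0.37 ± 0.30), and Il1rap, the accessory chain of all of these signalling receptors (1.06 ± 0.66), were not called. Il1rap had an estimated 6, 11 and 1 reads in untreated and 11, 8 and 10 in treated libraries, which overlap. Il18rap, the accessory chain for IL-18, was too low to be tested and did not overlap, at 0.02, 0.69 and 0.02 log2 CPM untreated and -0.79, -0.74 and -1.71 treated. Sigirr, a further gene of this family, lies outside the naming pattern and fell (-1.17 ± 0.22, SE).

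Chains for IL-10 (Il10ra and Il10rb), IL-15 (Il15ra), the IL-20 cytokines (Il20rb) and IL-5 (Il5ra) were not called. Their log2 fold changes ran from -0.43 ± 0.24 (SE) for Il20rb to 0.34 ± 0.33 for Il15ra. Il10ra, at 2.38 ± 0.21 log2 CPM in treated and 2.34 ± 0.21 in untreated libraries (SD, n = 3), differed by less than the spread within either group. Il27ra and Il3ra were left out as too low. Il27ra had an estimated 10, 9 and 8 reads in untreated and 3, 0 and 4 in treated libraries, and Il3ra had 20 reads in each group.

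Among chemokine receptors 2 fell, 0 rose and 3 were not called of 5 tested, beside 19% of all tested genes that fell. Ccr6, the receptor of Ccl20, was at 2.36, 2.41 and 2.58 log2 CPM in untreated and 1.49, 1.41 and 1.28 in treated libraries. Both groups were narrow (SD 0.12 and 0.10) and the log2 fold change was -1.06 (SE 0.20, limma adjusted p = 0.00573). Ccr4, which guides T cells to Ccl17 and Ccl22, was at 2.04, 3.11 and 2.72 log2 CPM in untreated and 1.30, 0.93 and 1.93 in treated libraries. The groups nearly touched (1.93 against 2.04), and Ccr4 fell by 1.24 (SE 0.36, limma adjusted p = 0.0289), a call lost in 4 of 6 fits with 1 library left out. Ccr2 (-0.17 ± 0.30, SE), the eosinophil receptor gene Ccr3 (-0.28 ± 0.38) and the follicular homing receptor gene Cxcr5 (0.16 ± 0.34) were not called, and in all 3 the groups overlapped. Cxcr2, the neutrophil receptor of Cxcl1, was too low to be tested, with an estimated 1, 5 and 11 reads in untreated and 1, 2 and 15 in treated libraries.

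**Figure D4:**
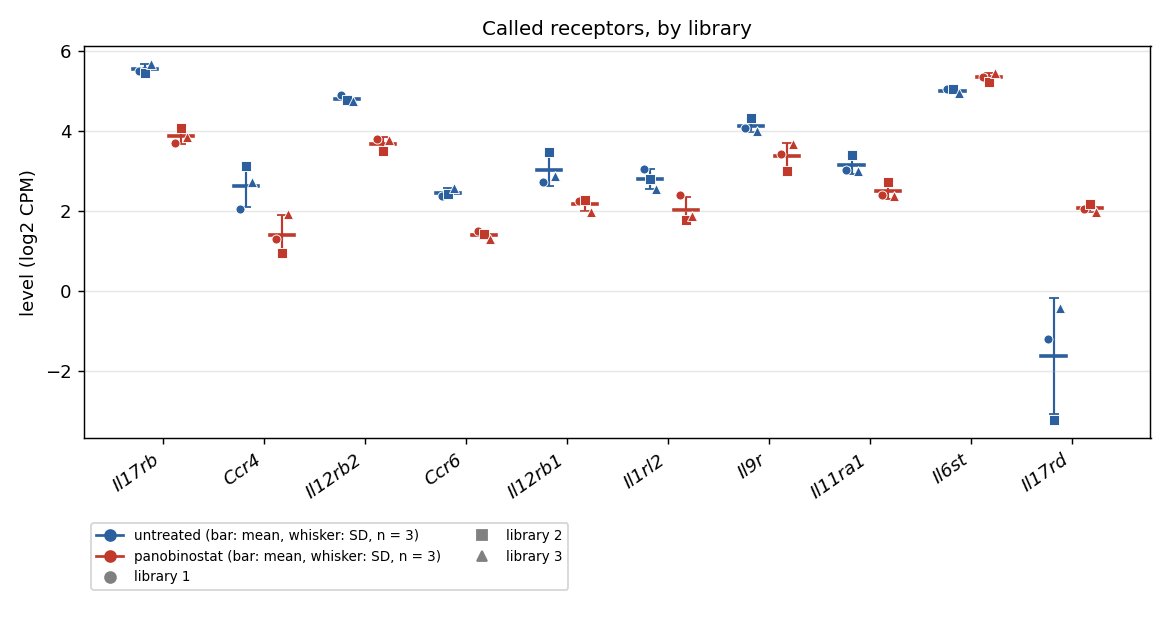
Level (log2 CPM, y axis) of the 10 called receptor genes in each library, with the mean and SD of the 3 libraries of a group. Il17rd stands near 2 in treated (red) and below 0 in untreated (blue) libraries, Il6st is slightly higher in treated libraries, and the other 8 are lower.

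The remaining members were Il18bp, a soluble protein that captures IL-18, and Il4i1, a secreted amino acid oxidase. Il18bp was not called (-0.04 ± 0.37, SE). Il4i1 was at 1.04, 2.18 and 1.48 log2 CPM in untreated and 0.48, -0.34 and 0.81 in treated libraries, without overlap, and just missed the threshold (log2 fold change -1.25, SE 0.43, limma adjusted p = 0.0522). A neighbouring stress-response gene Atf5, which overlaps Il4i1 on the opposite strand, fell by 1.33 (SE 0.23). Of the 49 genes, 9 were too low for the test. In a fit with no filter on low values 20 of 49 were called (18 fell, 2 rose), beside 36.7% of all 13185 rows, and Il1f9 was the added gene (limma adjusted p = 0.00445).

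Of the 9 receptor genes set aside, which were picked with their fold changes known, 5 fell, 0 rose and 4 were not called, beside 19% of all tested genes that fell. The homing receptor gene Ccr9, whose ligand is Ccl25, fell by 2.00 (SE 0.34) and Cxcr4 by 0.75 (SE 0.11), whereas Ccr7 was not called (0.08 ± 0.15). Ccr9 had a treated mean of -0.45 log2 CPM and was tested only through its untreated level.

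Genes that carry signals from these receptors were divided. Over all tested genes 19.2% rose and 19% fell. Of 17 tested genes of IL-1 and IL-17 receptor signalling, 4 rose and 6 fell, with a median log2 fold change of -0.126. Those with the smallest adjusted p were the kinase adaptor gene Tab1 (-1.40 ± 0.21, SE), the ubiquitin ligase gene Traf6 (0.83 ± 0.13), the receptor kinase gene Irak1 (-0.68 ± 0.11) and Map3k7, which encodes the kinase TAK1 (0.47 ± 0.08). The shared adaptor gene Myd88 was not called (-0.11 ± 0.14). Among 23 tested JAK, STAT and related genes 4 rose and 5 fell (median -0.0193). The transcription factor gene Stat3, which acts below gp130, rose (0.98 ± 0.11), and Crlf2, the receptor of the thymic cytokine TSLP (-1.21 ± 0.17), the interferon receptor gene Ifnar2 (-0.47 ± 0.09) and the phosphatase gene Ptpn6 (-0.29 ± 0.07) fell.

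Of 28 tested genes of chemokine receptor signalling and scavenging, 7 rose and 8 fell (median 0.0772). The surface protein gene Cmtm6 rose (1.69 ± 0.20, SE), and genes that switch chemokine receptors off fell, namely the receptor kinase gene Grk2 (-0.66 ± 0.08), the arrestin gene Arrb1 (-0.81 ± 0.10) and the G protein regulator gene Rgs3 (-1.12 ± 0.15). In the same gene families Arrb2 (0.33 ± 0.09) and Rgs2 (0.41 ± 0.09) rose and Rgs19 (-0.84 ± 0.18) fell, while others were not called. The fractalkine receptor gene Cx3cr1, known from myeloid cells, fell (-1.44 ± 0.28). Among 8 tested genes from a list of other T cell products, mostly cytokines, 1 rose and 4 fell (median -0.436). Of the 24 genes on that list, 9 were found among the symbols, and Ifng, Lta and Csf2 were not. Tnf rose, from 1.82, 2.03 and 1.99 log2 CPM in untreated to 2.61, 2.40 and 2.66 in treated libraries (log2 fold change 0.62, SE 0.19, limma adjusted p = 0.0345). Ebi3, a chain of IL-27 and IL-35 (-1.02 ± 0.22), the lymphotoxin gene Ltb (-1.53 ± 0.39), Tgfb1 (-0.52 ± 0.14) and Mif (-0.36 ± 0.11) fell. The share of all tested genes that rose was 19.2% and that fell was 19%.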

How the data were processed

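Libraries were made from 100 ng of total RNA with the QuantSeq 3' mRNA-Seq kit, per the labels' protocols. The submitters' processing notes name build mm10 and, as tools, HISAT2 2.1.0, Subread 1.5.0, featureCounts, limma and cutadapt 1.9. The sources used here do not give annotation, strand setting or low-count filter. The authors deposited log2 values, which the values show to be log2 CPM, apparently quantile normalized between libraries, so a shift of all genes one way could not be seen. Columns were matched to samples by treatment and the number after S. The members, gene lists, motifs and tests were chosen with earlier results of these data known.

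Genes with a mean of at least 0 log2 CPM (12554) were fitted with limma 3.58.1 in R 4.3.3 (lmFit, eBayes with trend), panobinostat against untreated, with Benjamini-Hochberg adjustment over all tested genes calling genes under 0.05. Values were used with no pseudocount. Reads were estimated by taking each step between distinct low values of a library as 1 read, up to 300 steps, which gave 6010000 to 7740000 reads per library. Without molecular identifiers, reads may repeat 1 molecule, so intervals cover counting error only. Called members are each named with their values, other members with levels or ranges (1 member and some genes used for context are not reported here), and each context list with up to 4 called genes of smallest adjusted p. Where further genes of a list are named, they were chosen after their values were seen. Positions are from GENCODE M21, in which all 49 symbols were found. The fit was tested on simulated data. Alternatives were other filters, a pseudocount, other scalings, spread models and weights, a library block and each library left out. Python 3.11.15, pandas 2.3.3 and matplotlib 3.10.9 served for tables and figures.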

Additional observations from a re-analysis of the deposited data

How the results depend on the processing

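Of the 19 calls among interleukin, chemokine and receptor genes, 9 held in each of the fits with 1 library left out and under the other alternatives run for them (Ccl3, Ccl4, Il12b, Il16, Il1b, Ccr6, Il12rb2, Il17rb and Il17rd), and 10 were lost in at least 1 fit with a library left out. The number of calls in the set ran from 9 to 19 over these fits, and that over all tested genes from 3295 to 5226. At an adjusted p threshold of 0.01, 8 of the set and 2513 of all tested genes were called, and Il12b was not (limma adjusted p = 0.0122). Under the other alternatives the set had between 13 calls (mean log2 of at least 1, which tests fewer genes) and 24 (sample weights). The filter at a mean log2 of at least 1 left Ccl3, Il12b and Il17rd untested. No called member reversed its direction, and 5 members that were not called passed under some alternative (Ccl25, Il2, Il17ra, Il1rap and Il4i1). The labels give every library the same replicate number, and the column numbers did not pair the libraries (correlations of deviations -0.0444, 0.104 and -0.0108). With these numbers as a replicate block, 15 of the set and 4148 of all tested genes were called, and Cxcl9, Cxcl10, Il6st and Il1rn were no longer called. With 20 or fewer estimated reads over a group, as for Ccl3, Cxcl16, Cxcl9, Il12b and Il1rn in treated cells, depth limits the size of the fold change.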
